A study of Caenorhabditis elegans with 9 samples.

Results

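The genes described here encode proteins of the cytosolic ribosome of the nematode Caenorhabditis elegans. They were taken as the 60 genes on a list of sequence names, with or without the letter that marks an isoform, and all 60 were found among 43901 loci of the expression table, in 77 transcript rows. The list holds 33 genes of the large subunit (rpl-) and 27 of the small subunit (rps-). A gene with several rows, of which there were 11, was given the mean of its rows, and all 60 entered the test, which covered 19567 loci whose coverage averaged 1 or more.

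Each ribosome joins a small subunit, which reads the mRNA, to a large subunit, which forms the peptide bonds, and each protein is needed in a fixed ratio to the ribosomal RNA. The mRNAs of these proteins are therefore made at high and balanced levels in growing cells. In the adult hermaphrodite the germ line, which fills each oocyte with ribosomes, is a large consumer of them.

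RNA came from whole young adults without embryos, grown for 53 h at 20 °C in liquid culture. The groups were wild type (N2, 3 libraries), emr-1(gk119) (2 libraries), lem-2(tm1582) (2 libraries) and emr-1(RNAi) lem-2(tm1582) (2 libraries). The last, from lem-2(tm1582) worms fed emr-1 double-stranded RNA, are called the labelled double libraries below. The paper names the worms fed for the double depletion BN19. It counts 2 libraries each of BN19, BN20 and a further strain, and their match to the labels is not spelled out. EMR-1 is the worm emerin and LEM-2 another LEM-domain protein of the inner nuclear membrane, and the comparison asks how gene expression responds when either or both are depleted. The feeding bacteria made double-stranded RNA of emr-1 or, as a control, of empty vector L4440, but which groups ate the control is not spelled out, and depletion by feeding is known to be less effective in neurons.

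The targeted genes were examined first. The wild-type libraries had 52.1, 44.6 and 60.5 on emr-1, those of emr-1(gk119) had 0 and 1.5, and the labelled double libraries had 134.8 and 73.5, so these did not have less emr-1 coverage than wild type. The paper checked the depletion otherwise: it states that a portion of the culture, kept for another day, showed the embryonic lethality of the double depletion. On lem-2 the values were 32.2, 29.3 and 39 for wild type, 54 and 53.3 for the libraries labelled lem-2(tm1582), and 28.9 and 30.5 for the labelled double libraries. The labels were kept, and every direction given below is between libraries so labelled. The replicates are not stated to come from separate cultures, so p-values measure only the spread between these libraries, which may be technical. In whole animals, fewer cells of a type and less RNA per cell cannot be told apart.

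The ribosomal protein genes were among the most covered genes of the animal. Levels are normalized base coverage, the median depth over the bases of an exon and then over exons, a measure that does not grow with the length of the gene. The median wild-type level was 1678 over the 60 genes and 10.34 over all loci tested. Of the 60, 31 were among the 100 loci with the highest mean coverage, 57 among the first 500 and 59 among the first 1000. The median was 1590 for the large subunit and 2130 for the small subunit. Together they took 7.20% to 10.26% of the coverage summed over the table, depending on the library.

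Rps-25 (K02B2.5), which encodes a small-subunit protein and lies on chromosome IV (5947093 to 5947605 in assembly WBcel235, minus strand, 2 exons), had the highest wild-type mean, with 7746, 9516 and 4782 in the 3 libraries. Rps-15 (F36A2.6), another small-subunit gene, followed with 5055, 5080 and 3727. Rpl-23 (B0336.10), of the large subunit, had 5297, 4615 and 3798, and rps-23 (F28D1.7), whose protein lies at the decoding centre, had 4778, 5046 and 3395. The ranges of these 4 genes overlapped, but within each wild-type library rps-25 was the highest of them. The order of rps-15, rpl-23 and rps-23 differed between libraries, so it is not fixed by the replicates. At the other end stood rpl-18 (Y45F10D.12, chromosome IV, 13777865 to 13778809, plus strand, 5 exons), a large-subunit gene with 49.6, 45.4 and 30.2, rank 4232 among the loci tested. The next lowest by wild-type mean were rps-21, with 456, 332 and 366, and rpl-33, with 463, 475 and 304. No library of rpl-18 came near the lowest value of either, whereas rps-21 and rpl-33 overlapped. The level of rpl-18 is a median over the exons of 1 transcript row, and the cause of its low value was not tested.

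**Figure D1:**
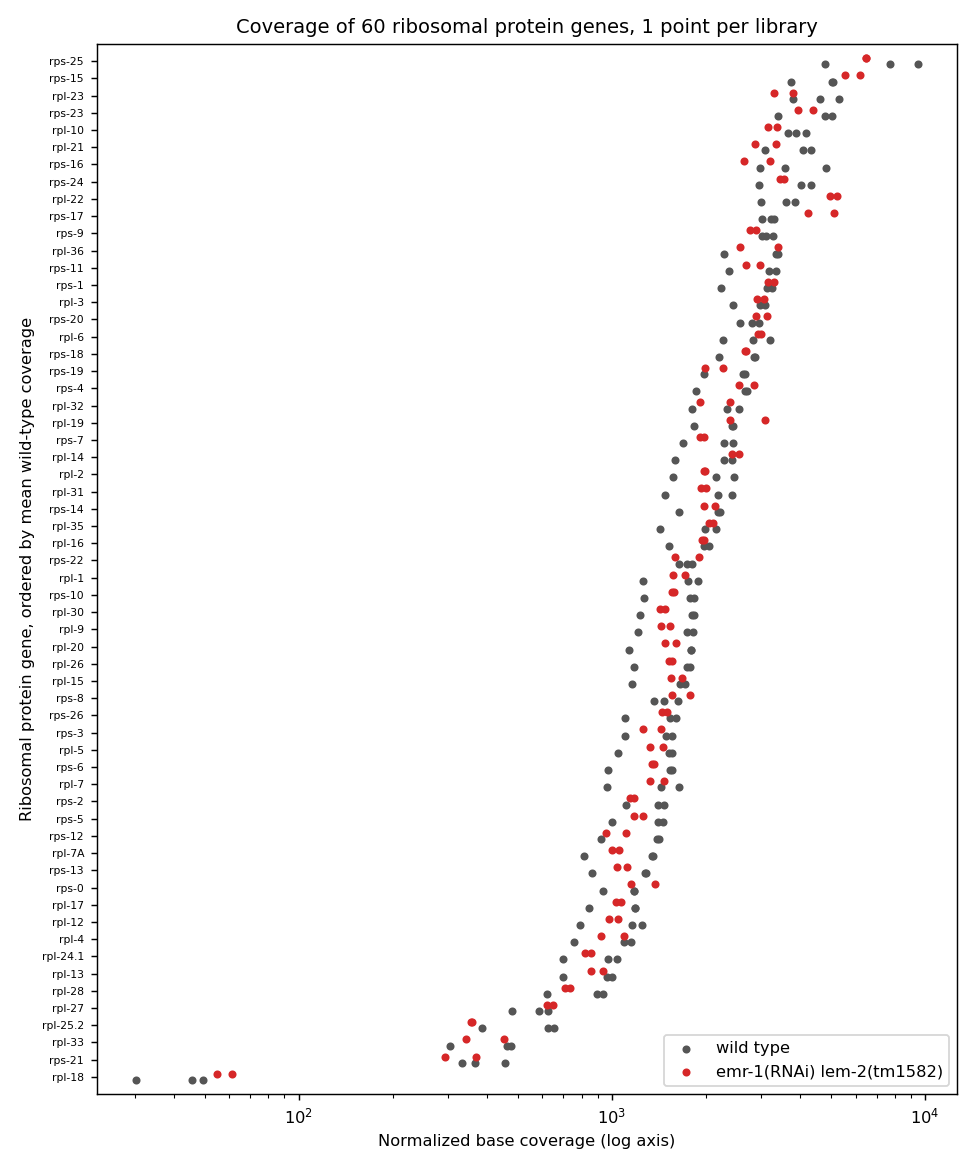
Normalized base coverage (log axis) of the 60 ribosomal protein genes, ordered by their mean in wild type, with 1 point for each wild-type library (grey) and each labelled double library (red). Rpl-18 stands apart at 30.2 to 61.2, and for 51 of the 60 genes the red and the grey points overlap.

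The genes are short and have few introns. They had 2 to 6 exons and a median spliced length of 592 bases (306 to 1226). Of the 60, 20 lie on chromosome I, 7 on II, 16 on III, 14 on IV, 3 on V and 0 on X. Exons of 11 of them (rpl-2, rpl-5, rpl-7, rpl-14, rpl-22, rpl-23, rpl-28, rpl-32, rps-4, rps-16 and rps-18) overlap those of another protein-coding gene in the WBcel235 annotation, and their coverage may hold reads of both genes, since counting by strand is not stated.

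Most of the 60 genes shifted in the same direction in 1 wild-type library. Wild-type replicate 3 stood below replicates 1 and 2 in 56 of the 60 genes, and above both in 2, whereas 35.0% of all loci tested stood below both and 29.1% above. The difference of replicate 3 from the mean of the others had a median of -0.51 on the log2 scale over the 60 genes (range -0.84 to 0.56), against -0.02 over all loci tested and -0.01 over the 145 other loci whose coverage averaged 1000 or more. Over 21 further cytosolic ribosomal protein genes, chosen by their gene symbols, it was -0.43. The exceptions were rps-16 (3582, 2965 and 4818) and rpl-10 (3883, 3642 and 4151), a large-subunit gene.

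Tissue markers were read in the same library. The coverage summed over 12 intestine markers was 12649 and 10967 in wild-type replicates 1 and 2 and 16547 in replicate 3, where 5 markers were above both others and 3 below. Of 12 muscle markers 9 were below both others in replicate 3 and 0 above, and of 10 epidermis markers 7 were below and 2 above, although the epidermis sum was highest there (1323, 1442 and 1601). Of 12 neuron markers 4 were below both and 2 above, and of 19 germline markers 6 and 5, shares below close to the 35.0% of all loci. The summed germline coverage was 4385, 4564 and 4338. No marker of these lists was at 0 in every library. The part of these values in the ribosomal protein levels was not tested.

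Other replicates were closer. Replicate 1 minus replicate 2 had a median of -0.01 in wild type, -0.15 in lem-2(tm1582) and -0.05 in the labelled double libraries. In emr-1(gk119) the median was -0.24, with a range of -0.64 to 0.92, and 30 genes differed by more than 0.3 in either direction. Rps-25 had the widest gap, with 16207 and 8594, and rps-17 (5478 and 3259), rpl-22 (6171 and 3732) and rps-15 (8517 and 5371) were also higher in replicate 1.

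**Figure D2:**
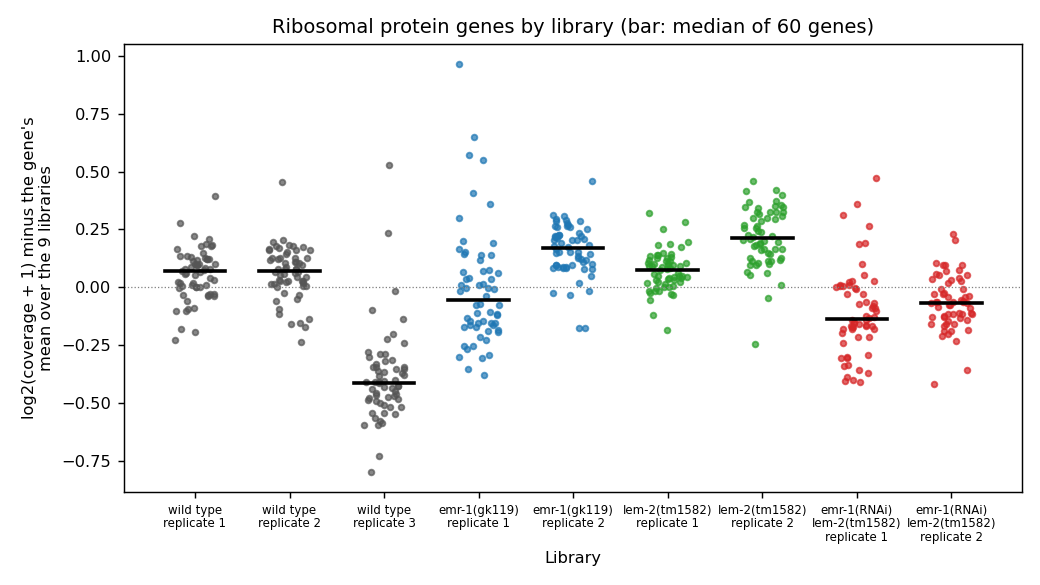
Deviation of each of the 60 genes from its own mean over the 9 libraries, in log2(coverage + 1), by library, with a bar at the median. The median is -0.41 in wild-type replicate 3 and between -0.14 and 0.21 in the other 8 libraries, and emr-1(gk119) replicate 1 has the widest scatter.

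In emr-1(gk119) animals the ribosomal protein genes were, at the median, 0.17 higher than in wild type on the log2 scale, and none passed the test. Changes are differences in log2(coverage + 1), tested with limma in 1 fit over all 9 libraries and called at a Benjamini-Hochberg adjusted p under 0.05. Of all loci tested 16.6% were called in this comparison, and of the 145 other highly covered loci 23 were. Of the 60 genes 1 had an unadjusted p under 0.05, against 32.5% of all loci, and the smallest adjusted p was 0.138 (limma). The median over all loci was 0.01, and 52 genes lay above 0 and 8 below. Without wild-type replicate 3 the median of the 60 genes was -0.01. Without emr-1(gk119) replicate 2 it was 0.05, and 1 gene, rps-17, was called higher.

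Rps-25 and rps-15, which differed between the emr-1(gk119) replicates, had the largest changes upwards. Rps-25 was at 16207 and 8594 against 4782 to 9516 in wild type, a change of 0.74 (SE 0.36, limma adjusted p = 0.205), and its ranges overlapped. Rps-15 was at 8517 and 5371 against 3727 to 5080, without overlap (0.56, SE 0.24, limma adjusted p = 0.157). On the other side rpl-25.2, a large-subunit gene, was at 372 and 503 against 385 to 652.0 (-0.32, SE 0.26, limma adjusted p = 0.446), and rpl-10 at 2960 and 3470 against 3642 to 4151 (-0.28, SE 0.14, limma adjusted p = 0.233), the latter without overlap. Both emr-1(gk119) libraries lay above every wild-type library in 12 genes and below in 1, where 22.1% and 19.5% of all loci did so.

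The libraries labelled lem-2(tm1582) had ribosomal protein levels 0.24 above wild type at the median, again with no gene past the test. Here 0.046% of all loci were called. An unadjusted p under 0.05 was found for 0 of the 60 genes, against 15.7% of all loci, and the smallest adjusted p was 0.355 (limma). Of the 60 genes 57 lay above 0, with changes from -0.11 (rps-16) to 0.45 (rpl-18). The median was 0.06 over all loci and 0.13 over the 145 other highly covered loci. For rpl-7A, a large-subunit gene, the values were 1499 and 1590 against 1344, 1348 and 815 in wild type, so both libraries were above all 3, with a change of 0.44 (SE 0.25, limma adjusted p = 0.448). Such separation upwards was seen in 24 genes (20.8% of all loci) and downwards in 0 (12% of all loci). Without wild-type replicate 3 the median was 0.09.

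In the labelled double libraries the ribosomal protein genes did not follow the rise of the table as a whole. Their median change from wild type was -0.01, while that of all loci tested was 0.35, and 56 of the 60 lay below this value. Over the 145 other highly covered loci the median was 0.15, so the distance from genes of like coverage was smaller. None of the 60 genes was called, where 38.4% of all loci and 60 of the 145 other highly covered loci were. Of the 60 genes 2 had an unadjusted p under 0.05, against 48.6% of all loci, and the smallest adjusted p was 0.0955 (limma). Changes ran from -0.60 to 0.56, with 29 above 0 and 31 below, and both subunits sat at the same place (large 0.00, small -0.03). The 95% interval of the change stayed within a 2-fold change in 56 genes, and it reached a median of 0.48 to either side, so smaller differences could not be resolved in single genes. In 14 genes the whole interval lay below 0.35, and in 0 above. The share of all loci for which this held was not computed, and 0.35 is above the median of the other highly covered loci (0.15).

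The distance from the other loci rests in part on scaling and on the constant added to the coverage. With quantile normalization repeated on transcripts the median of all loci was -0.01, that of the 60 genes -0.08, and 41 of them lay below the former. With the libraries scaled to equal summed coverage the values were 0.22, -0.17 and 57 genes.

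Rpl-22 and rps-17 had the largest changes upwards in the labelled double libraries. Rpl-22 (C27A2.2, chromosome II, 5055616 to 5056214, plus strand, 3 exons), of the large subunit, was at 3603, 3838 and 3001 in wild type and 5242 and 4953 in the labelled double libraries, a change of 0.56 (SE 0.23, 95% interval 0.01 to 1.10, limma adjusted p = 0.0955). Its transcript rows a and b both pointed upwards, by 0.76 and 0.48. Rps-17 (T08B2.10, chromosome I, 6220093 to 6220764, minus strand, 3 exons), of the small subunit, was at 3224, 3299 and 3020 against 5108 and 4239, a change of 0.55 (SE 0.23, 95% interval 0.01 to 1.09, limma adjusted p = 0.0956). For both genes every labelled double library was above every wild-type library, and so was emr-1(gk119) replicate 1 for rpl-22 (6171) and rps-17 (5478).

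Rpl-18, the gene with the lowest level, was at 61.2 and 54.6 against 49.6, 45.4 and 30.2 (0.49, SE 0.27, limma adjusted p = 0.181). Rps-15 was at 6176 and 5569 against 3727 to 5080 (0.36, SE 0.24, limma adjusted p = 0.279). Neither overlapped with wild type. The 60 genes held 5 with both labelled double libraries above wild type and 4 with both below, where 41.8% and 19.2% of all loci did so.

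Rpl-25.2 (F52B5.6, chromosome I, 8329062 to 8329647, minus strand, 3 exons) had the largest change downwards. It encodes a large-subunit protein that sits, in the yeast and mammalian ribosome, at the exit of the peptide tunnel. Wild type had 623.7, 652.0 and 385, and the labelled double libraries 358 and 355, a change of -0.60 (SE 0.26, 95% interval -1.19 to 0.00, limma adjusted p = 0.104). The low wild-type value was that of replicate 3, and without this library the change was -0.84 and the gene was called lower (limma adjusted p = 0.0161), the only one of the 60. Rpl-23 was at 3301 and 3775 against 3798 to 5297 (-0.36, SE 0.23, limma adjusted p = 0.246). Rps-25, rps-23, rps-21 and rpl-33, at the ends of the order of levels, lay within the spread of wild type or overlapped with it, except that the lower value of rps-21 (294) was under the lowest of wild type (332).

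The size of the change of the 60 genes from wild type depended on wild-type replicate 3. Against replicates 1 and 2 alone, both labelled double libraries were below in 38 genes and above in 5, where 22.3% and 46.4% of all loci were, and the median change was -0.18. Of the 60 genes 56 lay below the median of all loci with replicate 3, and 58 did without it.

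**Figure D3:**
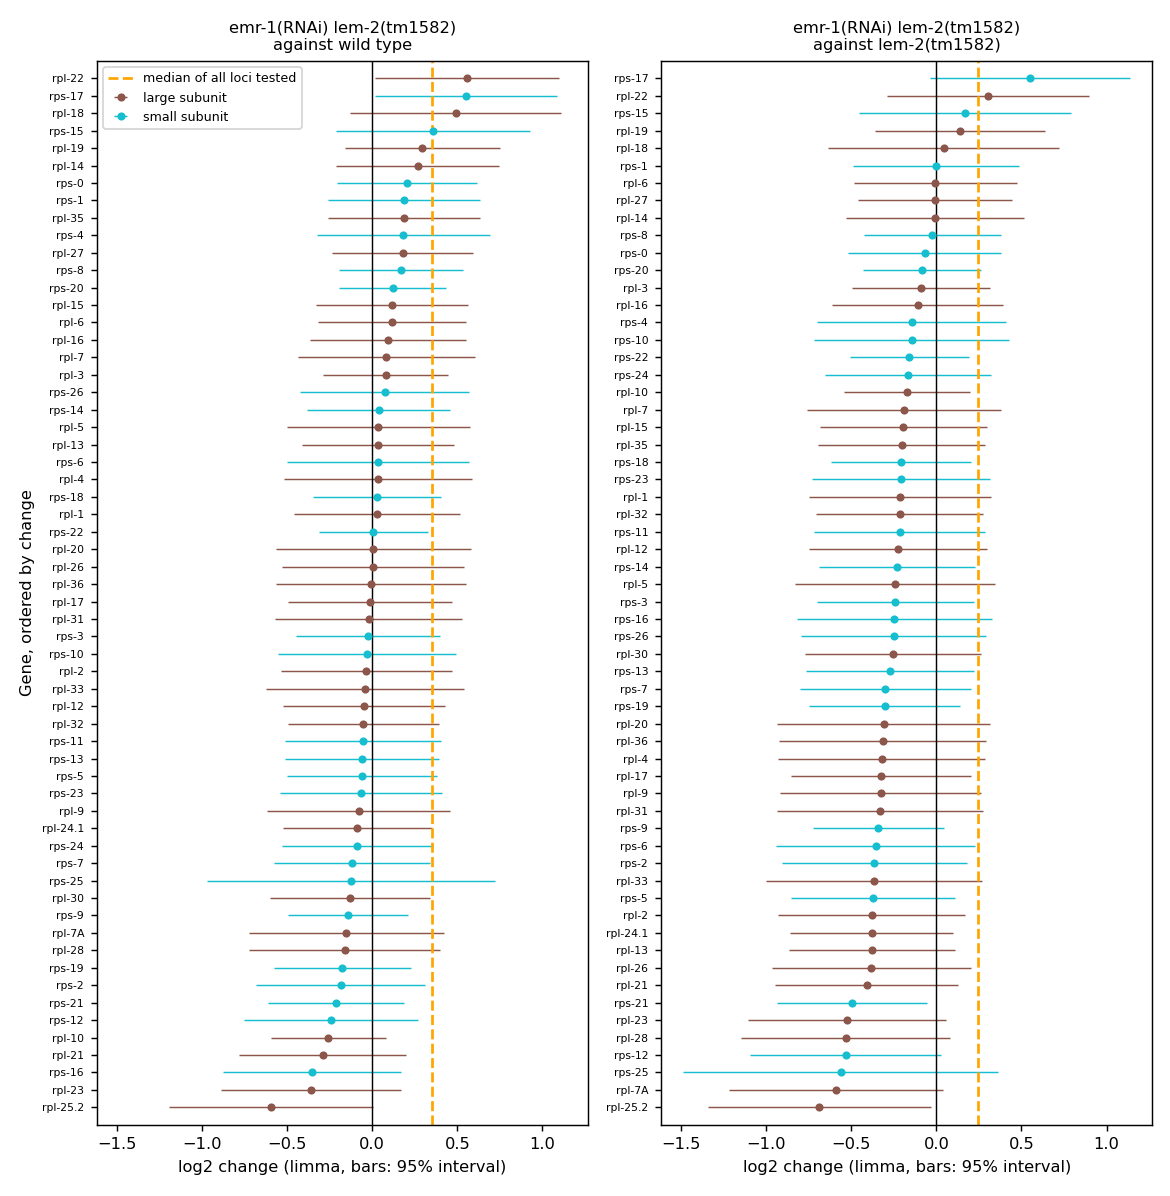
Change in log2(coverage + 1) of each ribosomal protein gene, with its 95% interval from limma, from wild type (left) and from lem-2(tm1582) (right) to the labelled double libraries, in brown for the large and blue for the small subunit. The dashed line is the median of all loci tested, 0.35 on the left and 0.25 on the right, and 56 and 58 of the 60 points lie below it. The medians of the 145 other highly covered loci, not drawn, were 0.15 and 0.005.

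The comparison of the labelled double libraries with those labelled lem-2(tm1582) uses no wild-type level. The labels give both groups the same lem-2 allele, but lem-2 coverage differed between them (-0.83, limma adjusted p = 0.0445) and was near that of wild type in the labelled double libraries. The median change was 0.25 over all loci and 0.005 over the 145 other highly covered loci. Of the 60 ribosomal protein genes 55 lay below 0, and their median change was -0.24 (large subunit -0.26, small -0.23). The size of this median is that of the gap between the emr-1(gk119) replicates (-0.24) and under that of wild-type replicate 3 from the others (-0.51), and the SD of the library medians within groups was 0.17. Both labelled double libraries lay below both lem-2(tm1582) libraries in 44 genes, or 73.3%, against 21.8% of all loci, and above in 3, or 5.0%, against 41.9%. With repeated quantile normalization the medians were -0.27 for the 60 genes and -0.01 for all loci, and with equal summed coverage -0.33 and 0.17.

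No single gene passed the test, where 16.5% of all loci and 25 of the 145 other highly covered loci were called. An unadjusted p under 0.05 was found for 2 of the 60 genes, against 33.8% of all loci, and the smallest adjusted p was 0.112 (limma). These p-values use a spread shared with the wild-type and emr-1(gk119) libraries. With only the groups compared in the fit 17 of the 60 genes had an unadjusted p under 0.05 (limma), and with the replicate number as a block 11. The share of all loci under these fits was not computed. In 24 genes the whole 95% interval of the main fit lay below the median of all loci. The share of all loci for which this held was not computed either. Rpl-25.2 was at 522 and 633 in lem-2(tm1582) and 358 and 355 in the labelled double libraries (-0.69, SE 0.28, limma adjusted p = 0.132). Rpl-7A was at 1499 and 1590 against 998 and 1050 (-0.59, SE 0.27, limma adjusted p = 0.168). In neither did the groups overlap. The genes with the largest differences in the other direction were again rps-17, with 3245 and 3106 against 5108 and 4239 (0.55, SE 0.25, limma adjusted p = 0.169), and rpl-22, with 4170 and 4084 against 5242 and 4953 (0.30, SE 0.25, limma adjusted p = 0.439).

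The interaction term asks whether loss or knockdown of emr-1 went with a different change in the lem-2 background than in wild type: it is the labelled double value minus lem-2(tm1582), less the value of emr-1(gk119) minus wild type. It had a median of -0.40 over the 60 genes, 0.10 over all loci and 0.02 over the 145 other highly covered loci. Of the 60 genes 57 lay below 0. None was called, where 0.445% of all loci were. Of the 60 genes 1 had an unadjusted p under 0.05, against 19.0% of all loci, and the smallest adjusted p was 0.246 (limma), that of rps-25 (-1.30, SE 0.54). Rpl-7A followed with -0.83 (SE 0.36, limma adjusted p = 0.276), and rps-17 (0.14) and rpl-10 (0.10) were at the other end. The term draws on all 4 groups, and without wild-type replicate 3 its median was -0.24. The first 3 comparisons share the wild-type libraries and the interaction shares libraries with each of them, so their medians are not separate pieces of evidence.

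Some ribosomal proteins are encoded by 2 genes in the worm, and here the copies did not move together. Rpl-25.1 (chromosome X, 4715178 to 4715796), the partner of rpl-25.2, is not among the 60. It had 309, 278 and 241 in wild type, 368 and 537 in emr-1(gk119), 390 and 432.5 in the libraries labelled lem-2(tm1582) and 445.8 and 433.6 in the labelled double libraries. It rose in the labelled double libraries by 0.68 (SE 0.19, limma adjusted p = 0.0258) and in emr-1(gk119) by 0.69 (SE 0.19, limma adjusted p = 0.0455). The log2 ratio of rpl-25.1 to rpl-25.2 within a library was -1.01, -1.23 and -0.67 in wild type, -0.02 and 0.09 for emr-1(gk119), -0.42 and -0.55 for lem-2(tm1582), and 0.32 and 0.29 in the labelled double libraries. All 6 libraries of the other groups were above all 3 of wild type, and in the labelled double libraries rpl-25.1 was the more covered copy. The call in the labelled double libraries was lost without wild-type replicate 2 or 3 (limma adjusted p = 0.0564 and 0.0605) and without labelled double replicate 1 or 2 (0.124 and 0.098). For the rise in emr-1(gk119) the adjusted p (limma) lay between 0.0302 and 0.152 with 1 library left out.

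The pair rpl-11.1 and rpl-11.2, neither of which is among the 60, encodes the large-subunit protein that binds the 5S ribosomal RNA. Rpl-11.1 (chromosome V, 3585312 to 3586064) fell from 2762, 3337 and 2028 in wild type to 1414 and 1656 in the labelled double libraries (-0.79, SE 0.26, limma adjusted p = 0.0444). Rpl-11.2 (chromosome X, 2241738 to 2242618) rose from 840, 693 and 598 to 1120 and 1203 (0.72, SE 0.18, limma adjusted p = 0.0175). Within a library the log2 ratio of rpl-11.2 to rpl-11.1 was -1.72, -2.27 and -1.76 in wild type, -1.56 and -0.64 for emr-1(gk119), -1.20 and -1.33 for lem-2(tm1582), and -0.34 and -0.46 in the labelled double libraries. The groups did not overlap with wild type in this pair either. The call of rpl-11.1 was lost without wild-type replicate 1 or 2 (limma adjusted p = 0.104 and 0.105) or labelled double replicate 1 or 2 (0.216 and 0.111), and that of rpl-11.2 without labelled double replicate 1 or 2 (0.0769 and 0.0935). In both pairs the copy with more coverage in the labelled double libraries than in wild type is on chromosome X.

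For rpl-24.1, one of the 60, and rpl-24.2, which share a gene name and lie on chromosome I, the shift was smaller. Whether rpl-24.2 encodes a second copy of the same subunit protein was not examined. Rpl-24.2 was at 166, 169 and 111 in wild type and 231 and 204 in the labelled double libraries (0.57, SE 0.27, limma adjusted p = 0.131), and rpl-24.1 at 1040, 970 and 699 against 821 and 856 (-0.09, SE 0.19, limma adjusted p = 0.743). The log2 ratio of rpl-24.2 to rpl-24.1 was -2.64, -2.52 and -2.65 for wild type and -1.83 and -2.06 for the labelled double libraries, and emr-1(gk119), with -1.94 and -2.83, spanned the wild-type values. An exact permutation test of the ratios, two-sided, gave p = 0.2 for the labelled double libraries against wild type in each of the 3 pairs, the smallest value that 3 against 2 libraries allow. The difference of the mean ratios was 1.52 for rpl-11, 1.27 for rpl-25 and 0.66 for rpl-24. Copies of a gene can be alike in sequence, and how reads that fit both were assigned is not stated. The split of coverage within a pair is uncertain to that extent.

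**Figure D4:**
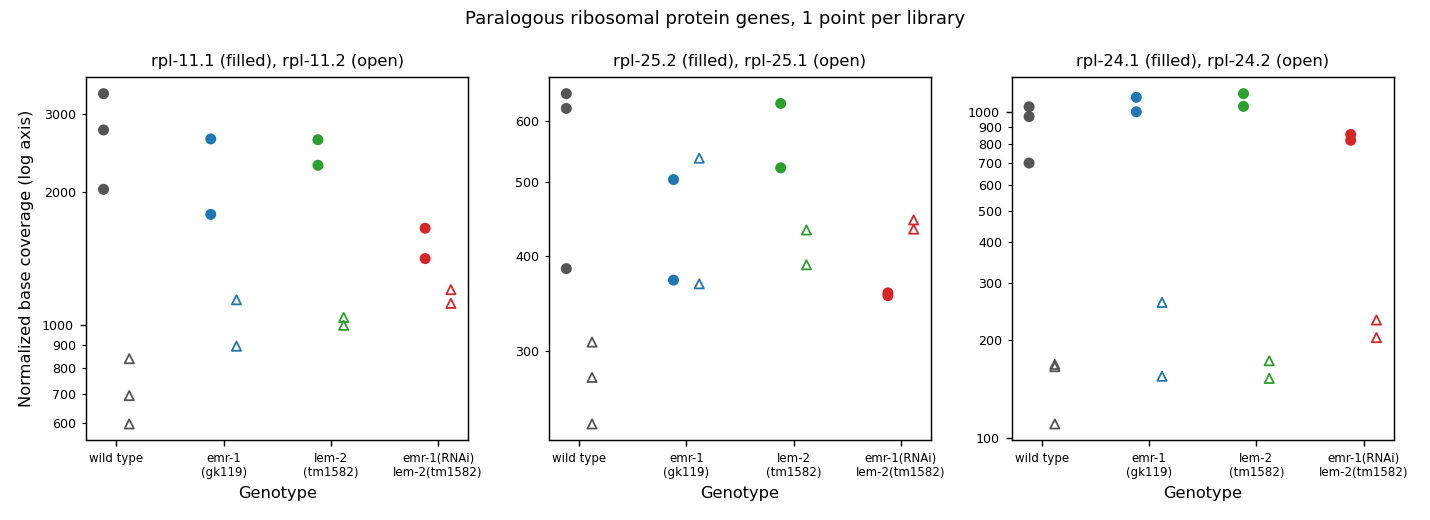
Normalized base coverage (log axis) of 3 pairs of genes that share an rpl- name, in the 4 genotypes, with 1 point per library. The rpl-25.2 points (filled) are above those of rpl-25.1 (open) in wild type and below them in the labelled double libraries, and the gap between the rpl-11 copies narrows from wild type to the labelled double libraries.

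Other genes of the translation machinery were set beside the 60, by lists written with earlier results of these data known. In the labelled double libraries against wild type 26.4% of all loci were called higher and 12% lower, and the counts below are to be read against these shares. The 21 further cytosolic ribosomal protein genes had a median of -0.01, with 2 called higher and 1 lower, the copies described above. Of 37 initiation factor genes 2 were called higher and 5 lower (median -0.23), the latter close to the share of all loci. Ife-3, an isoform of the cap-binding protein eIF4E, was at 158, 150 and 125 in wild type and fell to 42.2 and 44.3 (-1.71, limma adjusted p = 0.00104), while ife-4, another isoform, rose from 26.3, 18.8 and 20.0 to 52.9 and 41.3 (1.09, limma adjusted p = 0.0129). Of 9 elongation and termination factor genes 1 was called higher and 3 lower (median -0.34). Eef-1A.2, one of the genes for the factor that brings aminoacyl-tRNA to the ribosome, rose from 433, 430 and 266 to 861 and 722 (1.10, limma adjusted p = 0.0182), and eef-1G fell (-0.74, limma adjusted p = 0.0154).

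Of 26 ribosome biogenesis genes 1 was called higher and 6 lower (median -0.34). Fib-1, the fibrillarin of the nucleolus, fell from 395, 494 and 272 in wild type to 183 and 224 (-0.89, limma adjusted p = 0.0323), nol-10 fell from 31.7, 38.3 and 36.8 to 12.6 and 7.80 (-1.74, limma adjusted p = 0.00175), and rrp-1 rose (1.02, limma adjusted p = 0.0315). The medians of these lists stood below that of all loci, as did that of the 60 genes.

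Germline markers changed in the same comparisons. Of 19 of them 16 were called lower and 0 higher in the labelled double libraries (median -1.85), and their summed coverage was 4338 to 4564 in wild type, 2061 to 2248 for emr-1(gk119), 3037 to 3729 for lem-2(tm1582) and 913 to 973 in the labelled double libraries. The median coverage of the 60 ribosomal protein genes over the same groups was 1392 to 1854, 1750 to 2002, 1841 to 2155 and 1648 to 1832. In emr-1(gk119) 13 germline markers were called lower (median -0.97), where 6.27% of all loci were, and against lem-2(tm1582) 14 were called lower in the labelled double libraries, where again 6.27% of all loci were. Of the somatic markers against wild type, 5 of 12 of muscle, 6 of 12 of neurons, 5 of 10 of epidermis and 2 of 12 of intestine were called higher, and 0, 1, 3 and 3 lower, so that intestine stood below the 26.4% of all loci called higher. The part of these shifts in the ribosomal protein levels was not tested.

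**Figure D5:**
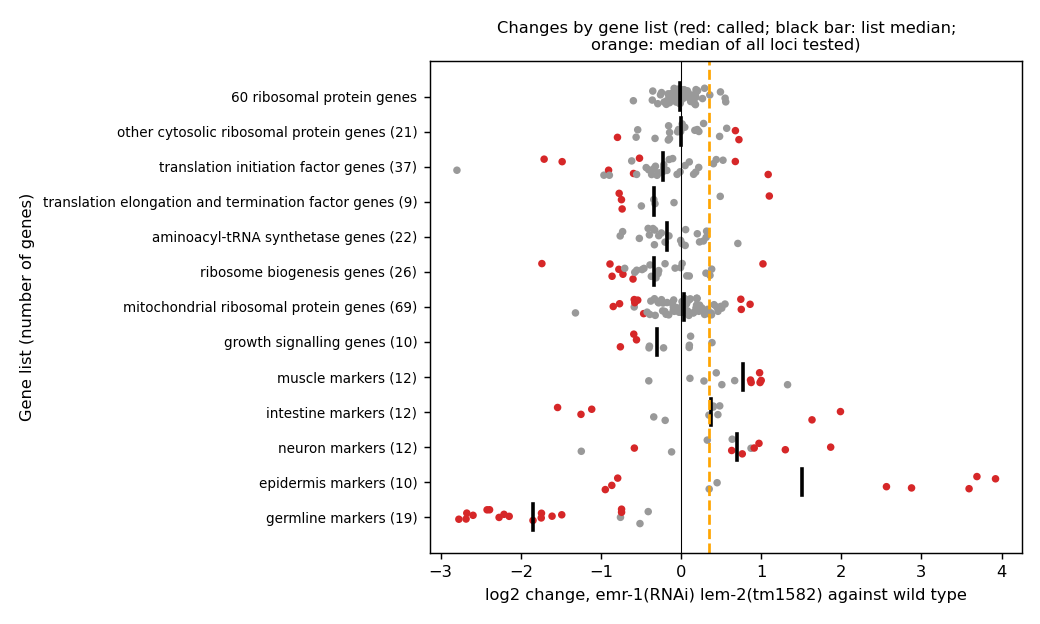
Change in log2(coverage + 1) from wild type to the labelled double libraries, with 1 point per gene, for the 60 ribosomal protein genes and the other lists (red, called by limma; grey, not called), a black bar at each list's median and a dashed line at the median of all loci, 0.35. The 60 genes form the narrow cloud around -0.01 without a red point, and the germline markers lie furthest to the left with a median of -1.85.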

How the data were processed

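RNA of whole young adults was enriched for poly(A) and read as single ends of 150 bases, with 3 libraries in each lane, and which libraries shared a lane is not stated. The authors used TopHat to map to WS231, counted base coverage by Samtools and Rsamtools, quantile-normalized the median coverage per exon over the 9 libraries and deposited, for each transcript, the median over its exons. These signal values are coverage, for which count models are unsuited, and read depth is unknown. Quantile normalization sets the spread of exon values equal in all libraries, so a shift shared by most exons cannot be seen. The locus values used here were not equal after it. Their median over all loci tested was 10.22 to 10.58 in the wild-type libraries and 14.54 and 14.21 in the labelled double libraries.

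Transcript rows were averaged per locus, log2(coverage + 1) was fitted with limma 3.58.1 in R 4.3.3 with 4 groups and a mean-variance trend, over 19567 loci whose coverage averaged 1 or more, and p-values were adjusted by Benjamini-Hochberg within each comparison over all of these. All tests were two-sided. The script was tested on simulated data. The authors' method (SAM) was not used here. Coordinates and exons are those of Ensembl's WBcel235 annotation, and none was converted. Sequences were not used here.

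The 60 genes and the other gene lists were chosen with earlier results of these data known. Genes named are those with the highest or lowest level and the largest change in either direction in each comparison. Also named are the pairs of genes that share an rpl- name, and up to 3 called genes with the largest change in each other list. Rps-16, rps-17 and rpl-22 in further sentences were also named after their values were seen. Over all loci tested replicate numbers showed no pairing: deviations of libraries with the same number had correlations of -0.07 to 0.03. For the 60 genes alone pairing was not examined, and their median difference of replicate 1 from replicate 2 was negative in every group. Alternatives were another pseudocount (0.1, 5), coverage minimum (none, 5), scaling, fit or row summary, a replicate block, and leaving out each library.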

Additional observations from a re-analysis of the deposited data

How the results depend on the processing

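Calls among the 60 genes were few under every alternative run. Against wild type, rps-17 was the 1 gene called higher in emr-1(gk119) without emr-1(gk119) replicate 2, and rpl-25.2 the 1 gene called lower in the labelled double libraries without wild-type replicate 3 or with the replicate number as a block. Against lem-2(tm1582), 1 gene was called lower with only the groups compared in the fit (rpl-7A, limma adjusted p = 0.0484) and 1 with the replicate block (rpl-25.2, limma adjusted p = 0.0492). The block gives wild-type replicate 3 a level of its own, so its estimates equal those without that library: a median of -0.0076 for emr-1(gk119) and -0.18 for the labelled double libraries, and 0.082 in place of -0.11 for rps-16 in lem-2(tm1582). Leaving out each library in turn, the median ranged from -0.0076 to 0.25 for emr-1(gk119) and from -0.18 to 0.090 for the labelled double libraries against wild type, and changes of small size crossed 0: in the labelled double libraries against wild type, rps-25 ranged from -0.41 to 0.091, rps-23 from -0.24 to 0.044 and rpl-33 from -0.25 to 0.16, in lem-2(tm1582) rps-16 from -0.27 to 0.082, and in the interaction rpl-10 from -0.011 to 0.22 and rps-17 from -0.23 to 0.52. The calls of the copies are fragile, with adjusted p (limma) up to 0.216 for rpl-11.1 (-0.99 to -0.63), 0.0935 for rpl-11.2 (0.61 to 0.85) and 0.124 for rpl-25.1 (0.59 to 0.76) with 1 library left out. The rpl-25.1 call was also lost with repeated quantile normalization (0.0667), equal summed coverage (0.0799) and the block (0.0778), that of rpl-11.2 with equal summed coverage (0.0556) and the block (0.0543), and that of rpl-11.1 with only the groups compared (0.0751), no trend (0.0521) and no coverage minimum (0.0641). The interaction needs all groups and was not run with only the groups compared. Depth is unknown, and the number of libraries limits the precision.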

Other observations

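Mitochondrial ribosomes are built from a separate set of nuclear genes, whose summed coverage was 6430, 6782 and 6457 in the 3 wild-type libraries. Of 69 such genes 41 stood below both others in wild-type replicate 3 and 15 above. Of the 69 genes 3 were called higher and 6 lower in the labelled double libraries against wild type, with a median of 0.03. Both counts are lower shares than over all loci, of which 26.4% were called higher and 12% lower. Mrps-16 fell from 125, 96.6 and 127 to 56.4 and 72.1 (-0.85, limma adjusted p = 0.0165), and mrpl-24 rose from 40.9, 60.8 and 43.6 to 92.1 and 83.0 (0.86, limma adjusted p = 0.028). Against lem-2(tm1582), 0 of the 69 were called in either direction and the median was 0.04.

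Of 22 aminoacyl-tRNA synthetase genes 0 were called in either direction in the labelled double libraries against wild type, with a median of -0.18. Of 10 growth signalling genes 3 were called lower and 0 higher, beside the same shares of all loci. Akt-1, a kinase of the insulin pathway, fell from 115, 91.8 and 87.0 to 55.2 and 59.1 (-0.76, limma adjusted p = 0.00814), rict-1, the Rictor of a TOR complex, fell by 0.59 (limma adjusted p = 0.0245) and daf-15, the Raptor of the other TOR complex, fell by 0.56 (limma adjusted p = 0.0186).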
